A study of Homo sapiens with 4 samples.

Results

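The HMGA2 locus is described here through the regions of H3K27ac that the authors' deposited table assigns to that gene. H3K27ac is an acetylated form of histone H3 found at active promoters and enhancers. All lines naming HMGA2 were taken, in position order, and they held 49 distinct regions of the 91107 in the authors' deposited table. HMGA2 was chosen by its deposited fold changes and adjusted p-values, so these serve as a description and not as a test. The cells were A375, an established line from human melanoma, and the mark was read by sequencing immunoprecipitated chromatin. Per the labels, 2 libraries come from cells exposed to isopropanol alone, the vehicle, and 2 from cells exposed to octanoate, a fatty acid of medium chain length, at 1 mM, all for 48 hours. Every region of the authors' deposited table carries a mean level, a fold change on the log2 scale with a standard error, and p-values. Single libraries have no values in it. Depth per library is therefore unknown, and every error below is the standard error of the authors' model, not a spread between libraries. The numerator of the fold change is not named, so changes are called positive or negative and not gains or losses under octanoate. The mean levels of the authors' deposited table, multiplied by 8, were whole at the 6th decimal for 100% of lines, against 50.1% when multiplied by 4, the number of libraries in the labels. Which libraries entered the comparison is not named.

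HMGA2 is a small chromatin protein that binds AT-rich DNA through its AT-hook motifs and bends or opens it for other factors. It is made in the embryo and in stem cells, is silent in most adult tissues, and is made again in many tumours. Its messenger RNA is a classical target of the let-7 family of microRNAs, which LIN28 proteins keep from maturing. HMGA2 is large for the size of its protein and lies next to a wide stretch without protein-coding genes, so that distant chromatin regions are assigned to it by position.

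The gene lies on chromosome 12 from 65824460 to 65966291 in RefSeq (GRCh38.p14), the build that the submitters' processing notes name as hg38. The distances in the authors' deposited table all imply a start at 65824131, which is 329 bases before the RefSeq one. The 49 regions reached from 65556653 to 65955689, a span of 399 kb. Of these, 21 lay upstream of the start, 1 covered it and 27 lay in the gene body, and none lay past the annotated end. All 49 were nearer to the HMGA2 start than to the starts of its neighbours MSRB3, a methionine sulfoxide reductase, and LLPH, a nucleolar protein. The assignment does not show that a region acts on HMGA2. Exons and introns were not used here, so regions in the gene body are not placed in either.

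Several of the upstream regions also lie over noncoding genes. The long antisense RNA MSRB3-AS1 (65466817 to 65642372) overlapped the first 10 of them, LINC02454 (65602869 to 65612987) overlapped 2, and the transcribed pseudogene RPSAP52 (65758020 to 65826974) runs from the near upstream side across the HMGA2 start. The 300 bases around annotated starts inside HMGA2 regions are shown where a start sequence was at hand. None was at hand for HMGA2 itself or for RPSAP52. Of the windows shown, 3 lie in the far upstream regions and 2 in the gene body, the parts of the locus that are compared. They run from 250 bases before to 50 after each start (RefSeq, GRCh38.p14), in position order. Capitals mark matches, on either strand, to TGANTCA (AP-1), CATGTG (an E-box that MITF can bind), CACGTG or TATAAA. LOC105369808, plus strand, chr12:65556662-65556961, in a region that was not called:
LOC105369808: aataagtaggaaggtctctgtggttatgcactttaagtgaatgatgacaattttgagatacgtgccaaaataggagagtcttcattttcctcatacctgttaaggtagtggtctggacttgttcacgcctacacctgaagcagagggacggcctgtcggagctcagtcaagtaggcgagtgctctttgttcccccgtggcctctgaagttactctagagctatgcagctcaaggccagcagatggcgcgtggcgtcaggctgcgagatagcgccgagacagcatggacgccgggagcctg
LINC02454, plus strand, chr12:65602619-65602918, in a called region:
LINC02454: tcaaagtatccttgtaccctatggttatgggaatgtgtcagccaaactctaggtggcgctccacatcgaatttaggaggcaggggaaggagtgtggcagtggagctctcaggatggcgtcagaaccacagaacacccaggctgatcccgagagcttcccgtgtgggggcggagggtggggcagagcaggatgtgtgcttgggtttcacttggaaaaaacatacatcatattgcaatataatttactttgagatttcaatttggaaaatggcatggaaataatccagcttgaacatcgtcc
MSRB3-AS1, minus strand, chr12:65642323-65642622, in the widest called region:
MSRB3-AS1: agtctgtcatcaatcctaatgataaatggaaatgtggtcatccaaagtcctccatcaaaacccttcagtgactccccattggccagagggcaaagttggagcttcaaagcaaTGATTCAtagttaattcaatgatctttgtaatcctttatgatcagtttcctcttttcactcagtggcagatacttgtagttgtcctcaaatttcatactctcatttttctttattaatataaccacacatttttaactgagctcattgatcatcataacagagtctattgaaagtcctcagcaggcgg
HMGA2-AS1, minus strand, chr12:65881529-65881828, in the region of the gene body with the lowest value among those with an adjusted p-value:
HMGA2-AS1: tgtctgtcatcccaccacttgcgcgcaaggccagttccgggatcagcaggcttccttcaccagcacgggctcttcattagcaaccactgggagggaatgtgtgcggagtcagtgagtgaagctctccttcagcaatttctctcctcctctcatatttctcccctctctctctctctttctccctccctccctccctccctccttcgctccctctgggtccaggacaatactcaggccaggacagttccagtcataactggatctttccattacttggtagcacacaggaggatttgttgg
HMGA2-AS2, minus strand, chr12:65948658-65948957, in another region of the gene body:
HMGA2-AS2: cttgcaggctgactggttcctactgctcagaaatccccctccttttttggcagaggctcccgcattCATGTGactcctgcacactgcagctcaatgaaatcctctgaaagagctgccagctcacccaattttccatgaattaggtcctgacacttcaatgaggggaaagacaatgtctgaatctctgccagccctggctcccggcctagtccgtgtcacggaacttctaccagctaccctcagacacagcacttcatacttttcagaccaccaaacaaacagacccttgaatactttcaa
The MSRB3-AS1 window held 1 match to TGANTCA, a motif found in 7.71% of the 35116 RefSeq start windows, and the HMGA2-AS2 window held 1 match to CATGTG, found in 11.1%. The LOC105369808, LINC02454 and HMGA2-AS1 windows held no match to these motifs, of which CACGTG was found in 7.26% and TATAAA in 11.5% of all windows. The 5 windows held 14, 7, 1, 6 and 4 CpG dinucleotides in the order shown, beside a median of 14 over all windows. A match is a description of letters and not of a bound site.

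Taken as 1 set, the HMGA2 regions did not stand out. In the authors' deposited table the median of their log2 fold changes was 0.25, a ratio of 1.19, and the median of all 36436 regions with an adjusted p-value was 0.32. A positive fold change was given for 36 of the 49 regions, or 73.5%, beside 73.7% of all regions of the authors' deposited table. Among the 22 HMGA2 regions with an adjusted p-value, 19 were positive, or 86.4%, beside 87.3%. An adjusted p-value had not been computed for the other 27, whose mean levels were at most 16.3.

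The single values were split by position. The 17 regions farthest upstream, from 65556653 to 65742821, were all positive, with log2 fold changes from 0.23 to 1.22 and a median of 0.81 in the authors' deposited table, a ratio of 1.75. The 32 regions from 65777632 onwards lay between -0.92 and 0.89 in the authors' deposited table, and their median was 0.03, a ratio of 1.02. A gap of 34.8 kb without a region separated the sets, and the RPSAP52 annotation begins inside it. This division was chosen after the values were seen, so it has no test. The difference of the medians was 0.78, and it was 0.75 when only the 11 regions of each set with an adjusted p-value were used. Within those 11 and 11, the sets did not overlap except at the low end of the upstream block, where 2 regions (0.27 and 0.23 in the authors' deposited table) lay under the value of 0.30 at the HMGA2 start.

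**Figure D1:**
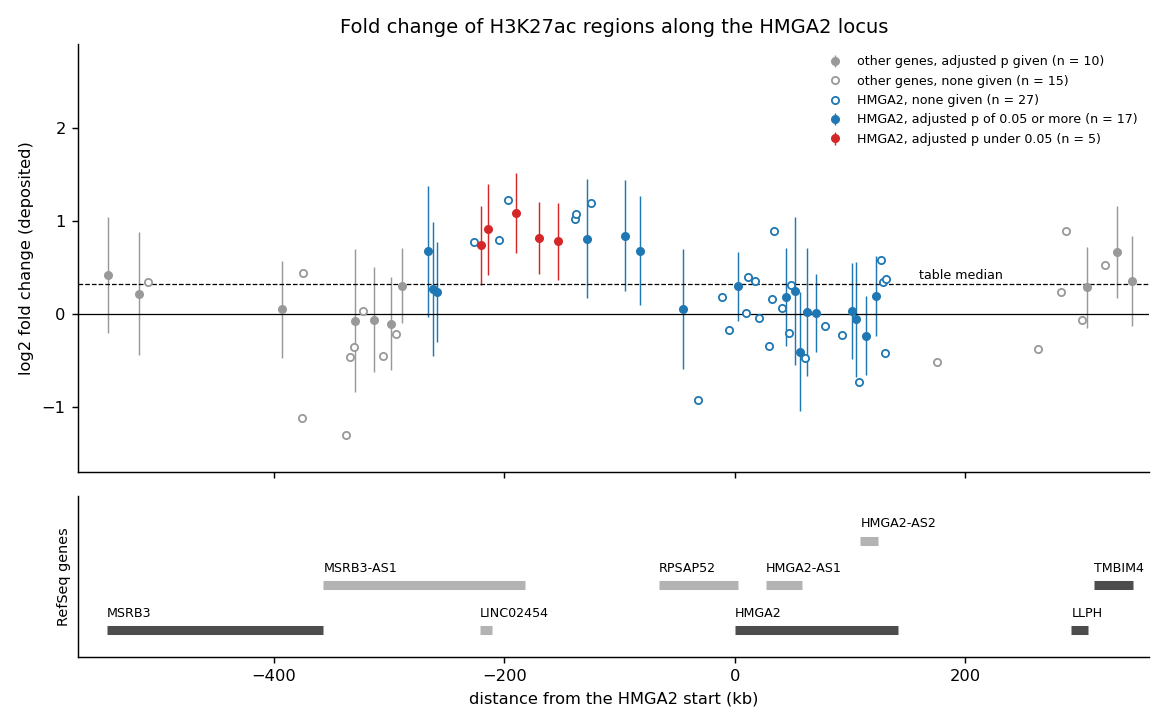
Deposited log2 fold change (vertical axis) of each region against its distance in kb from the HMGA2 start (horizontal axis), with 95% intervals as bars where an adjusted p-value was given; red points passed 0.05 and grey points belong to other genes, with RefSeq genes drawn underneath. The 17 far upstream regions lie between 0.23 and 1.22, and the points fall to a median of 0.03 from RPSAP52 on.

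The authors' adjusted p-value was under 0.05 for 5 of the 22 HMGA2 regions with such a value, beside 1.67% of all regions (608 of 36436). All 5 were positive and followed one another in position order among regions with an adjusted p-value, from 65601520 to 65675935. The 5 regions cover 77.1% of this stretch of 74.4 kb. Its first region ends 217 kb and its last region ends 148 kb upstream of the HMGA2 start. Since HMGA2 was chosen with these values known, the count is given as a description.

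The called region farthest from the start, chr12:65601520-65606722, covers the annotated start of LINC02454, whose sequence is shown above. It had a log2 fold change of 0.74 ± 0.22 (standard error) in the authors' deposited table, at a mean level of 175 and with an adjusted p-value of 0.0442. The next region, chr12:65607368-65612931, lies within LINC02454 and had 0.91 ± 0.25 in the authors' deposited table, at a mean level of 85.1 and with an adjusted p-value of 0.0285. Both therefore sit over a noncoding gene rather than in bare intergenic DNA.

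The smallest p-value of the locus belonged to chr12:65627812-65640950, a region of 13138 bases within the MSRB3-AS1 annotation. It had a log2 fold change of 1.08 ± 0.22 in the authors' deposited table, a ratio of 2.12, at a mean level of 226 (unadjusted p-value 6.93e-07, adjusted 0.000970). The widest region of the locus, chr12:65641880-65665624, spans 23744 bases and the MSRB3-AS1 start shown above. It had 0.81 ± 0.20 in the authors' deposited table and, at 521, the highest mean level of the 49 (adjusted p-value 0.00968). The last called region, chr12:65666212-65675935, overlapped no RefSeq gene and had 0.78 ± 0.21 in the authors' deposited table, at a mean level of 136 and with an adjusted p-value of 0.0262. The 5 values ran from 0.74 to 1.08.

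The far upstream block went beyond the called stretch on both sides. Towards the gene, 3 further regions with an adjusted p-value had log2 fold changes of 0.81 ± 0.33, 0.84 ± 0.31 and 0.68 ± 0.30 in the authors' deposited table. Their unadjusted p-values were 0.0135, 0.00585 and 0.0223 in the authors' deposited table, and their adjusted ones 0.173, 0.123 and 0.205, so none passed. The last of them ends 81.3 kb before the start. Away from the gene, 3 regions with an adjusted p-value had 0.67 ± 0.36, 0.27 ± 0.37 and 0.23 ± 0.28 in the authors' deposited table, and none had an unadjusted p-value under 0.05. The remaining 6 regions of the block were narrow, between 205 and 701 bases, with mean levels from 3.50 to 6.10. Their log2 fold changes ran from 0.78 to 1.22 in the authors' deposited table with standard errors from 0.69 to 0.91, and the 95% interval of each held 0.

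Over all 49 regions, which needs no division into sets, the SD of the log2 fold changes was 0.52, beside 0.49 for the median of the standard errors in the authors' deposited table. Among the 22 with an adjusted p-value the SD was 0.42, beside a median standard error of 0.27. The precision-weighted mean of the 49 was 0.38, and 44 of the 49 95% intervals held it, or 17 of the 22 with an adjusted p-value. The spread within each set is not compared with its errors, because the sets were divided by these same fold changes. The regions share libraries, so their errors are not independent of each other.

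At the HMGA2 start itself, the region chr12:65821631-65832171 had a log2 fold change of 0.30 ± 0.19 in the authors' deposited table, at a mean level of 416. Its p-value there was 0.118 before adjustment and 0.361 after it. Its 95% interval ran from -0.08 to 0.67, and its value relative to the table median was -0.03. The upstream region with the smallest p-value, picked by that value, exceeded it by 0.79 on the log2 scale. Their 95% intervals, from 0.66 to 1.51 and from -0.08 to 0.67, touched at the edges, and the difference was not tested. The start region was thus measured near the middle of the table.

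Between the upstream block and the start, over RPSAP52, 4 regions had log2 fold changes of 0.05, -0.92, 0.18 and -0.17 in the authors' deposited table, in position order. Only the first had an adjusted p-value, of 0.926. In the gene body, 27 regions had a median log2 fold change of 0.02 in the authors' deposited table, with 16 positive and 11 negative and none at an unadjusted p-value under 0.05. The strongest of them, chr12:65889006-65900820, had 0.01 ± 0.21 at a mean level of 332 in the authors' deposited table. The next, chr12:65932856-65942967, lies over the antisense gene HMGA2-AS2 and had -0.23 ± 0.21 at a mean level of 171 in the authors' deposited table. The region chr12:65944384-65949714, which holds the HMGA2-AS2 start shown above, had 0.19 ± 0.22 at a mean level of 122 in the authors' deposited table. The lowest value among body regions with an adjusted p-value was -0.40 ± 0.33 at chr12:65879079-65882026, which holds the HMGA2-AS1 start shown above, and the highest 0.25 ± 0.41, in the authors' deposited table. All 9 of these body regions with an adjusted p-value lay under the table median of 0.32, and all 9 intervals held 0.

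**Figure D2:**
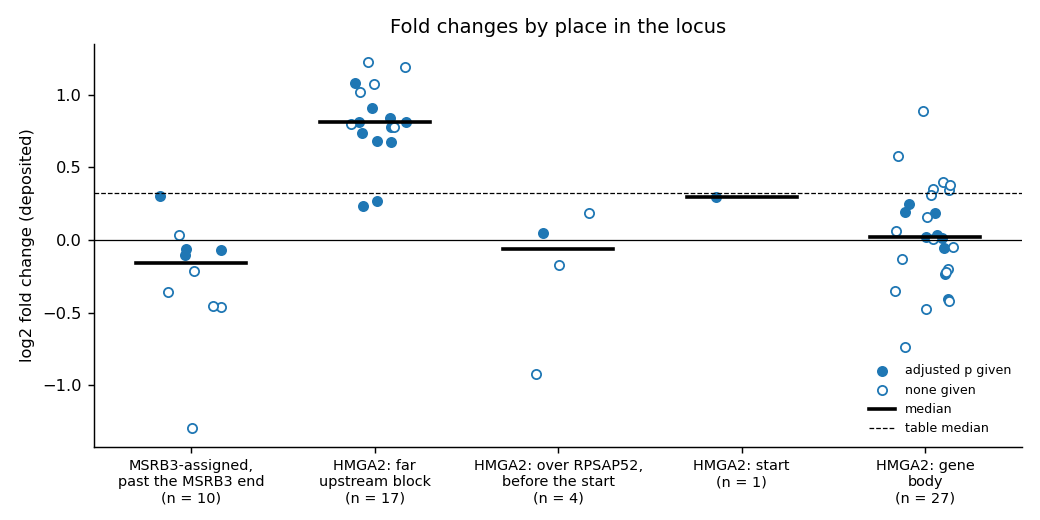
Deposited log2 fold change (vertical axis) of single regions by their place in the locus, with filled points where an adjusted p-value was given and black bars for medians. The far upstream block has a median of 0.81, the gene body 0.02 and the regions assigned to MSRB3 just beyond the block -0.16. Of these 10 MSRB3 regions, 4 have an adjusted p-value, with a median of -0.07.

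The amount of signal did not separate the sets in the same way. The upstream block held 48.7% of the summed mean level and 51.2% of the summed width of the 49 regions in the authors' deposited table. Per kb of region, the mean level had a median of 15.7 in the upstream block and 13.5 in the other regions, and it was highest at the start region with 39.5, followed by the LINC02454 start region with 33.7. Across the 49 regions the Spearman correlation of mean level and log2 fold change was 0.18, given as a description of regions that share libraries. Mean level and standard error had a correlation of -0.996, so regions of low level had wide intervals.

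**Figure D3:**
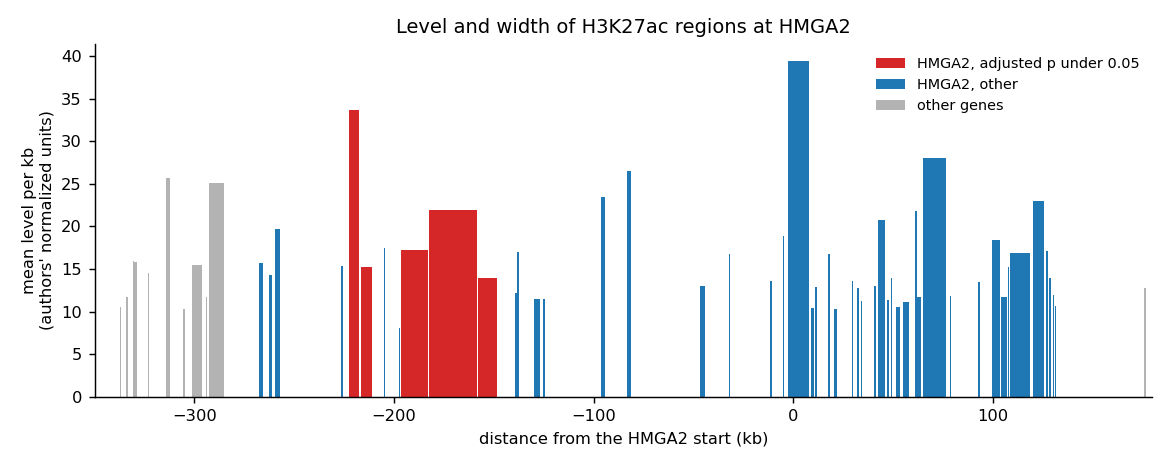
Mean level per kb in the authors' normalized units (vertical axis, from 0) of each region, drawn at its true width against distance in kb from the HMGA2 start (horizontal axis), with called regions in red and regions of other genes in grey. The start region is the tallest at 39.5 per kb, and the widest red bar is the called region of 23744 bases.

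The edge of the upstream block was set by assignment to the nearest start. The first HMGA2 region lies 266 kb from the HMGA2 start and 278 kb from that of MSRB3, and the last region before it, chr12:65531229-65538946, lies 285 kb and 253 kb from them. That outer region, assigned to MSRB3, had 0.31 ± 0.21 in the authors' deposited table at a mean level of 194, while the first region inside had 0.67 ± 0.36 at 26.9. The regions that follow inside had 0.27 ± 0.37 and 0.23 ± 0.28, both under the outer value, so the values show no step at this edge. Beyond the MSRB3 end there were 10 regions assigned to that gene, with a median log2 fold change of -0.16 and 2 positive values in the authors' deposited table. The adjacent region was 1 of those 2, and the positive values did not continue past it as a stretch. On the other side, the last HMGA2 region had 0.38 ± 0.68 and the first assigned to LLPH -0.51 ± 0.71 in the authors' deposited table.

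Within 1 Mb of the HMGA2 regions lay 76 regions of 12 other genes. None of their 27 regions with an adjusted p-value was called, beside 1.67% of all such regions of the authors' deposited table. With so few regions, the absence of calls is near that share and sets no contrast with HMGA2. An unadjusted p-value under 0.05 was given for 3 of the 27, or 11.1%, beside 18.4%. The median log2 fold change of the 76 regions was 0.13, or 0.26 among those 27, in the authors' deposited table. By gene, the medians ran from -0.29 for GRIP1, a synaptic scaffold protein with 14 regions, to 0.56 for the only region of IRAK3, an inhibitor of Toll-like receptor signalling, in the authors' deposited table. MSRB3, with 16 regions, had a median of -0.07 in the authors' deposited table, and RASSF3, with 15, had 0.23. None of these 12 genes had a median as high as that of the upstream block.

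At an unadjusted p-value under 0.05 there were 8 HMGA2 regions, 36.4% of the 22 with an adjusted p-value, beside 18.4% of all such regions of the authors' deposited table. All 8 were positive, as were 6538 of the 6711 such regions of the whole table. The 8 again followed one another, over 141 kb. Counted over the whole authors' deposited table in position order, the 608 calls fell into 536 runs of consecutive regions, of which 475 were single regions. The run of 5 at HMGA2 was the longest. The next was a run of 4 beside GRHL3, an epithelial transcription factor, and IFNLR1, an interferon lambda receptor chain, and 6 runs had 3 members. By positive fold change and unadjusted p-value under 0.05, a rule met by 17.9% of regions, the HMGA2 run of 8 was 1 of 4 runs of that length in the authors' deposited table, behind runs of 12 near UNC13A and 13 near GRHL3. Of 17301 genes in the authors' deposited table, 2 had 5 or more calls, which were HMGA2 and CDCP1, the latter with 19 regions. Runs were counted over regions with an adjusted p-value only, and the HMGA2 stretch of 5 calls held 7 regions in all. Gaps between regions were not weighed: a called region there ends at 65640950 and the next starts at 65641880. Run lengths and counts of calls therefore depend on how the signal was divided into regions. The search for runs was chosen after the values were seen and is a description.

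HMGA2 was set beside the 110 other genes with a number of regions within 20% of its own. Of those, 85 had 0 calls, 22 had 1 and 3 had 2 or more in the authors' deposited table. By the fixed measure of likeness, the distance between medians of the log2 fold change, the nearest were TRPS1 (55 regions, median 0.25), RAPGEF2 (52, 0.24) and CBLB (44, 0.25), none with a call in the authors' deposited table. The Spearman correlation between the fold changes of neighbouring regions was 0.61 over the 49 HMGA2 regions, 0.26 for TRPS1, 0.05 for RAPGEF2 and 0.01 for CBLB. Over the 110 genes it had a median of 0.20 and a highest value of 0.58, for KLF6. Some genes came close to HMGA2 in this, and those named next were chosen after their values were seen. USP24, with a median fold change of 0.24 and 0 calls in the authors' deposited table, had a correlation of 0.57, and BRINP3, with 0.24 and 1 call, had 0.48. PTPN1, which encodes a protein tyrosine phosphatase, had 0.56, with a median of 0.45 and 3 calls. The median of regions on the lower side of the start minus that on the higher side was 0.76 for HMGA2, from 21 and 27 regions. Among the 80 genes with at least 5 regions on each side this was the 3rd largest in size, after NUDT12 and RP11-457D20.2, which both had -0.81. PTPN1 had 0.55, the next largest positive difference. Neighbouring regions share libraries and local background, and these values carry no test.

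**Figure D4:**
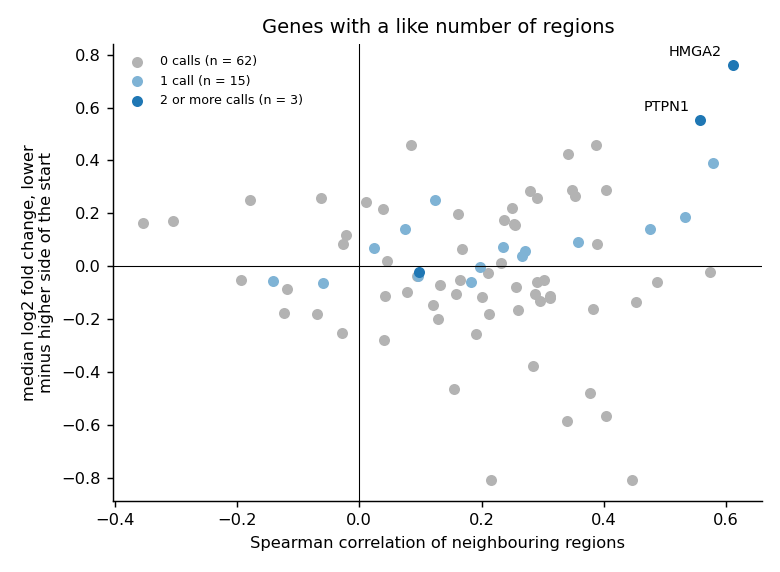
Each point is 1 gene with a number of regions within 20% of that of HMGA2 and at least 5 on each side of its start; the horizontal axis is the Spearman correlation of the log2 fold changes of neighbouring regions and the vertical axis the median log2 fold change on the lower minus the higher side of the start. HMGA2 lies at 0.61 and 0.76, and colours give the number of calls.

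A list of 21 genes around HMGA2 and let-7 was examined next, and 20 of them had regions. Current symbols matched 18, and 2 were found under older ones (TUT4 as ZCCHC11, TUT7 as ZCCHC6), while LIN28A was not found. The list held 183 regions with a median log2 fold change of 0.25 in the authors' deposited table, and 133 of them, or 72.7%, had a positive value. Among the 72 with an adjusted p-value, 1 was called and 17 had an unadjusted p-value under 0.05, beside 1.67% and 18.4% of all regions of the authors' deposited table. All 17 were positive, as were 6538 of the 6711 regions of the whole table under that threshold. Shares near those of the table give no result for the list as a whole.

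The only call of the list lay 70.8 kb from the start of IGF2, the fetal growth factor. It had a log2 fold change of 1.13 ± 0.33 in the authors' deposited table, at a mean level of 31.0 and with an adjusted p-value of 0.0402. HMGA1, the other member of the HMGA family, had 4 regions, all positive, and the one at its start had 0.51 ± 0.22 in the authors' deposited table with 0.196 as its adjusted p-value. Of the let-7 processing genes, LIN28B, which blocks let-7 maturation, had 6 positive regions with a median of 0.37 and 0 calls in the authors' deposited table. The RNA-binding protein gene IGF2BP2, whose expression HMGA2 is known to raise, had 33 regions, 28 of them positive. Its median log2 fold change was 0.57 in the authors' deposited table. An unadjusted p-value under 0.05 was given there for 9 of its 33 regions, beside 8189 of all 91107, with or without an adjusted p-value. All 9 were positive, as were 7907 of those 8189, and none was called. The smallest adjusted p-value was 0.0705. The IGF2BP2 start region had 0.30 in the authors' deposited table. IGF1R, the receptor for insulin-like growth factors, had 41 regions with a median of 0.15 and none at an unadjusted p-value under 0.05 in the authors' deposited table. CCND2, which encodes cyclin D2, had 4 positive regions with a median of 1.12 in the authors' deposited table, but none had an adjusted p-value and mean levels were at most 14.6.

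**Figure D5:**
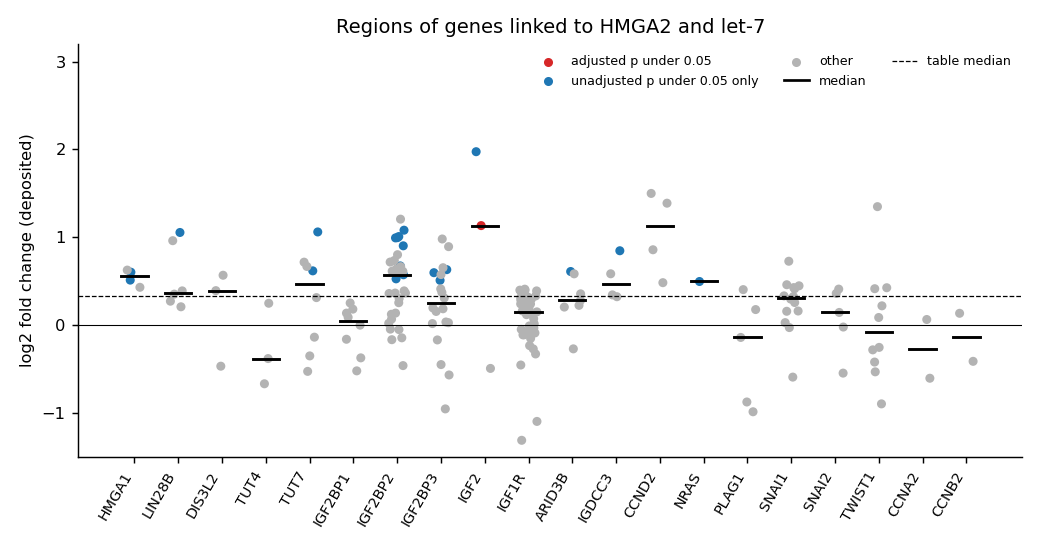
Deposited log2 fold change (vertical axis) of every region of the 20 listed genes with regions (horizontal axis), with black bars for medians, red for an adjusted p-value under 0.05 and blue for an unadjusted one only. The red point is the IGF2 region at 1.13, and IGF2BP2 has 9 blue points.

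The calls at HMGA2 rest on the fold changes as deposited. With the table median of 0.32 subtracted and the authors' standard errors kept, 0 of the 22 HMGA2 regions passed 0.05, beside 0.124% of all regions. Of the 22, 6 had an unadjusted p-value under 0.05 after centring, 4 above and 2 below the median. Among all 36436 regions with an adjusted p-value, 946 lay above and 1140 below the median by that rule. The adjusted p-values of the 5 called regions then ran from 0.153 to 0.892, at centred values from 0.41 to 0.76. Adjusted over all 91107 distinct regions, the unadjusted values in the authors' deposited table left 2 calls at HMGA2, beside 0.274%, because more regions enter the adjustment. By the adjusted p-value as deposited, a threshold of 0.1 gave 5 calls at HMGA2, beside 3.66% of the regions that have one. The difference between the upstream block and the other regions is not touched by a common shift, since it cancels.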

How the data were processed

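The data were 1 table of the authors' own comparison of H3K27ac in A375 cells, of which all lines assigned to HMGA2 were used. The mean level is a signal that the file headers mark as the authors' mean, deposited after a scaling that is not named. Fold changes and standard errors are deposited on the log2 scale, and the score is the authors' test statistic per the file headers. The p-value and adjusted p-value are deposited by the authors under column names that DESeq2 uses, per the file headers. An adjusted value of 1 was read as not computed. Per the submitters' processing notes, the build is hg38 and the tools include Bowtie2, MACS2, featureCounts, DESeq2 and bedtools 2.29.1, with no role or order. Columns of single libraries left out numbered 0.

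Lines repeating a region were merged with pandas 2.3.3. Calls are deposited adjusted p-values under 0.05. Intervals of 95% are normal ones from the standard errors. The design provided for a fit across libraries, which the table does not allow. Coordinates are as deposited. HMGA2 has no start sequence printed. Centring subtracts the median, takes normal p-values (scipy 1.17.1) and adjusts by Benjamini-Hochberg. It was tested on simulated data whose planted changes were larger than any at HMGA2, so changes of the size seen there were not tried. The named regions were all of HMGA2, its neighbours within 1 Mb, a pathway list and the 3 genes of nearest median. The members and lists were chosen with earlier results of these data known. Alternatives were a mean level of at least 10, other weights, each region left out and neighbours within 500 kb. Chosen after seeing the data were the division into 2 sets, the runs and the correlation of neighbouring regions.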

Additional observations from a re-analysis of the deposited data

How the results depend on the processing

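Centring on the table median turned the HMGA2 median from 0.25 to -0.077, by construction, and left 0 calls in place of 5 and 21 positive regions in place of 36. Adjustment over all distinct regions left 2 calls. The count of positive regions was 22 where the mean level reached 10 and 19 where an adjusted p-value was given, because fewer regions were counted. Leaving out each of the 49 regions in turn gave medians from 0.24 to 0.26, and differences between the upstream block and the rest from 0.78 to 0.79. That difference, and the correlation of neighbouring regions, were tried under other settings chosen after seeing the data. Without the 5 called regions the difference was 0.78, and with precision-weighted means 0.73. The sets were divided by these same fold changes, so no such setting, nor leaving out single regions, tests the division. The correlation was 0.70 where the mean level reached 10 and 0.75 where an adjusted p-value was given. No paired analysis was possible because single libraries have no values in the table. For that reason edgeR, DESeq2 size factors, leaving out a library and the replicate block were not run.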
